A study of Mus musculus with 36 samples.

Results

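The cytosolic DNA and RNA sensors described here are 6 genes, Zbp1, Dhx58, Ifih1, Ifi204, Ifi209 and Eif2ak2, of the 12394 genes that had a probe set of their own on the arrays. They were taken by gene symbol, with earlier results of these data known, and 11 single-gene probe sets carried one of these symbols. The study measured total RNA of 36 mouse samples on Affymetrix expression arrays, 2 arrays in each of 18 groups. Primary microglia were cultured from wild-type mice (WT), from mice lacking Usp18 (KO) and from mice with the Usp18 C61A point mutation, and all of them were either untreated or exposed to interferon beta (IFN-b, 500 U/ml) for 6 h or 24 h. BV-2 cells, an immortalised mouse microglial line, received a control siRNA or an siRNA against Usp18 and the same IFN-b schedule, so that every BV-2 array came from transfected cells. WT microglia came in 2 sets of 6 arrays. In deposition order set 1 lies next to KO and set 2 next to C61A, and these neighbours were compared with each other. The labels call the replicates biological, and do not say whether a number marks an animal, a pool or a culture. Age and sex of the mice, and the exons missing in KO, are not stated in the labels.

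Nucleic acid sensors detect viral or misplaced self nucleic acid in the cytosol and start type I interferon production, and most of them are themselves induced by interferon. Ifih1 (MDA5) binds long double-stranded RNA and signals through the mitochondrial adaptor Mavs, Dhx58 (LGP2) is a related helicase that lacks the signalling domains and modulates that pathway, and Eif2ak2 (PKR) is a double-stranded RNA-activated kinase that blocks translation through eIF2 alpha. Zbp1 recognises Z-form nucleic acid and engages the necroptosis kinase Ripk3. Ifi204 and Ifi209 belong to the PYHIN (HIN-200) family, whose HIN domain binds DNA, and Ifi204 takes part in DNA-triggered interferon induction. IFN-b acts through the receptor Ifnar and raises genes that carry the interferon-stimulated response element (ISRE). Usp18 removes the ubiquitin-like modifier ISG15 from proteins with its catalytic cysteine and, independently of that activity, restrains signalling at the receptor.

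Promoter windows from RefSeq (300 bases around the gene start, most of them before it, build GRCm38.p6) were given for 3 of the 6 members, Eif2ak2, Ifih1 and Ifi209, and are shown because all 3 genes rose with IFN-b in the comparisons below. Each sequence runs 5′ to 3′ on the gene's strand, and capitals mark a match to one of the motifs that were searched on both strands. The first motif was the ISRE core, GAAA followed after any 2 bases by another GAAA. The second was the interferon-gamma-activated site (GAS), TTC and GAA with any 3 bases between them. The Eif2ak2 window is chr17:78882523-78882822 on the minus strand, the Ifih1 window chr2:62646206-62646505 on the minus strand, and the Ifi209 window chr1:173630609-173630908 on the plus strand.
Eif2ak2: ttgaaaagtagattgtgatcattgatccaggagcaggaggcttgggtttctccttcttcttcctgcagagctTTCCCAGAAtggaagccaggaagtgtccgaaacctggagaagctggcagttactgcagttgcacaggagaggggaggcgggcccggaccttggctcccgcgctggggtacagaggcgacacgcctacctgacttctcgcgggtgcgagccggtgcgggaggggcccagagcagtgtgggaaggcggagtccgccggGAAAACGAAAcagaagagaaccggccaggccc
Ifih1: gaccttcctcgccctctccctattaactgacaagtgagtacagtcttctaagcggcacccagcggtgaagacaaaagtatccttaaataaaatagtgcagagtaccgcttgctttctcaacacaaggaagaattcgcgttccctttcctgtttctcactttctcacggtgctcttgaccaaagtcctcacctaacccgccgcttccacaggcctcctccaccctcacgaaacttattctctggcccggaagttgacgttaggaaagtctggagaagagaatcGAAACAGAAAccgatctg
Ifi209: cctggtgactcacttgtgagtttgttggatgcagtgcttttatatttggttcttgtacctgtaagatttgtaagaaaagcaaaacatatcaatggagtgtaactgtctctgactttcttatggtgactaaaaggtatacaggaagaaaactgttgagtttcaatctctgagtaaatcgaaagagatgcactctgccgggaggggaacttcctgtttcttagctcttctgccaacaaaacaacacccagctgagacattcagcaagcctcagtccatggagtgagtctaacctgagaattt
The ISRE core occurred in Eif2ak2 as GAAAACGAAA at bases 19 to 28 after the gene start and in Ifih1 as GAAACAGAAA at bases 33 to 42 after it. The Eif2ak2 window also held a GAS match, from base -178 to base -170. No match to either motif lay in the Ifi209 window. Of all 32851 promoter windows in the table, 3.44% held the ISRE core and 8.3% the GAS motif. The matches did not overlap each other.

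Before the results, 3 arrays have to be named, because they stood apart from their groups and stayed in the tests under their labels. Untreated WT replicate 1 of set 2 carried the sensors at levels of IFN-b-treated cells (Ifi209 at 11.11, against 5.95 on the other untreated array of that set). On C61A 6 h replicate 2 the sensors were low (Ifi209 at 8.77, against 11.38 on its replicate). Usp18 siRNA 6 h replicate 2, a BV-2 array, carried microglial genes that were at the bottom of the scale on the other BV-2 arrays: C1qa, a complement gene, lay at 9.96 on it and at 3.54 to 5.10 elsewhere. Cell type lists also parted the first pair. The mean of 6 astrocyte markers was 6.75 on untreated WT replicate 1 of set 2 against 5.07 and 5.28 on the 6 h and 24 h arrays of the same number, and 4.97 on C61A 6 h replicate 2 against 6.68 and 6.64 on the untreated and 24 h arrays of that number. Each array thus lay near the other's number. The neuron means were 4.63 and 3.44 on the pair, 4.25 and 4.20 on the other C61A replicate 2 arrays, and 3.57 and 3.56 on the other WT replicate 1 arrays of set 2. The fibroblast and endothelium list went the same way, and the microglia, oligodendrocyte and monocyte lists did not. How this came about was not tested. The part of these markers in any result was not tested, and results that rest on these arrays are given with and without them. The first pair was named by the values of the sensors themselves, so passing without these arrays is no independent support for a change of the sensors.

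Array medians ran from 5.594 to 5.827 on the log2 scale, and no pair of arrays was identical (highest correlation 0.995). Of the 11 microglial markers on the array, Aif1, Csf1r, C1qa, Fcrls, Tyrobp and 4 others lay above the array median on all 24 microglia arrays, P2ry12 on 18 and Tmem119 on 12. In BV-2 cells Csf1r and Tyrobp were above it on all 12 arrays, whereas C1qa, Fcrls and P2ry12 were above it only on the array named above. The astrocyte mean ran from 4.97 to 8.88 in set 2 and from 4.20 to 5.15 in set 1. In bulk RNA, a change in the share of a cell type and a change per cell cannot be told apart. Usp18 itself lay at 3.77 to 6.42 on the 6 KO arrays and at 10.71 to 12.56 on the IFN-b-treated WT arrays of set 1. On the untreated WT arrays of set 1 it read 5.68 and 5.99. The untreated Usp18 difference between KO and WT did not pass (-1.75 ± 0.906, limma, adjusted p = 0.199). The Usp18 difference between the siRNAs in BV-2 cells did not pass the test at any time, the changes being -0.02, -0.29 and -0.34 at 0 h, 6 h and 24 h.

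IFN-b raised all 6 sensors in WT microglia within 6 h. The largest change by the fit was that of Ifi209 and the smallest that of Eif2ak2. Values below are log2 intensities as deposited, and 1 unit is a doubling. In set 1, Ifih1 stood at 8.11 and 8.38 on the untreated arrays, at 11.92 and 12.21 after 6 h and at 11.02 and 11.07 after 24 h. Dhx58 went from 6.95 and 7.22 to 10.90 and 11.46, and lay at 10.38 and 10.54 after 24 h. Both helicases thus had their 24 h arrays below their 6 h arrays and well above the untreated ones, with no overlap. Eif2ak2 measured 6.26 and 6.80 untreated, 9.41 and 9.60 at 6 h and 8.63 and 8.54 at 24 h. The Z-nucleic acid sensor Zbp1 was at 4.85 and 5.55 untreated, under the array median, and reached 11.19 and 11.08 at 6 h and 10.67 and 10.53 at 24 h. Of the PYHIN genes, Ifi204 went from 5.58 and 5.82 to 9.23 and 8.81, then 8.67 and 8.13. Its relative Ifi209 started near the bottom of the scale, at 3.81 and 3.95, and rose to 11.12 and 11.15, with 10.29 and 10.08 at 24 h. A start so near the lowest readings leaves the size of such a change uncertain. The plot of values in microglia shows each of these arrays.

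**Figure D1:**
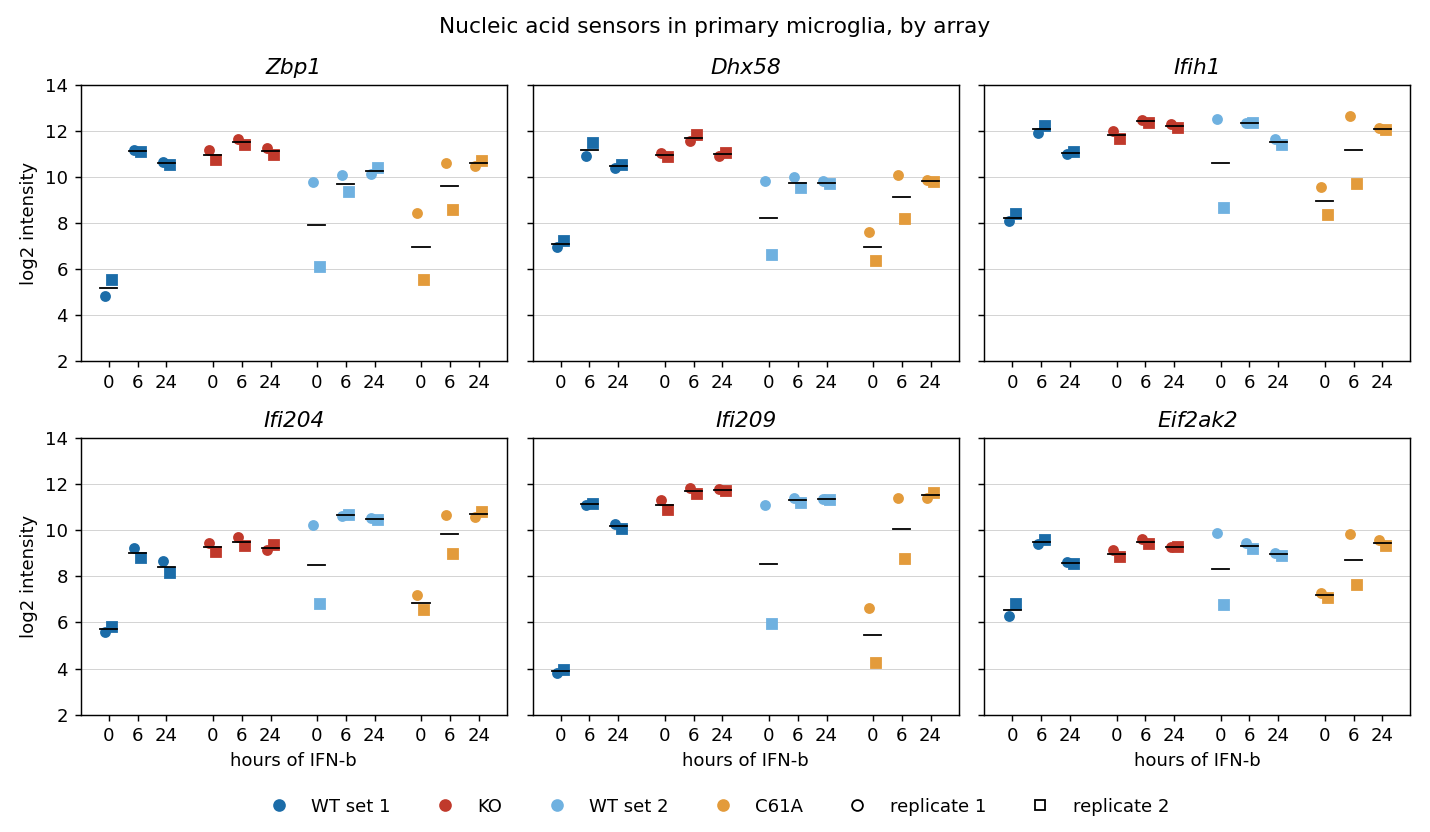
Log2 intensity of the 6 sensors on each of 24 microglia arrays (vertical axis) by hours of IFN-b and genotype (horizontal axis), 1 point per array with replicate 1 as circles and replicate 2 as squares, and a bar at the group mean. Untreated KO arrays lie at the level of IFN-b-treated WT arrays of set 1 (Zbp1 at 11.17 and 10.73 against 11.19 and 11.08), and untreated WT replicate 1 of set 2 lies far above its replicate.

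Across both sets, the 6 h change passed for all 6 members (limma, adjusted p under 0.05), where 7.59% of the 7960 genes tested were called higher. This share is given below as the background of each count, in the direction counted, and over both directions where no member was called unless a direction is named. It is always a share at an adjusted p under 0.05. Where any member had an unadjusted p under 0.05, the number of all genes with such a p is given separately. The mean change over the sets was 5.01 ± 0.826 (SE) for Ifi209 (adjusted p = 0.00267), 3.86 ± 0.689 for Zbp1 (adjusted p = 0.00422) and 2.82 ± 0.538 for Dhx58 (adjusted p = 0.00556). Ifih1 rose by 2.78 ± 0.665 (adjusted p = 0.014), Ifi204 by 2.73 ± 0.525 (adjusted p = 0.00572) and Eif2ak2 by 1.98 ± 0.518 (adjusted p = 0.0217). The median over the members was 2.80, and over all genes tested -0.12. At 24 h, 4 of 6 passed (background 2.02%): Ifi209 at 4.56 ± 0.826, Zbp1 at 3.87 ± 0.689, Dhx58 at 2.45 ± 0.538 and Ifi204 at 2.34 ± 0.525. Ifih1 (1.86 ± 0.665, adjusted p = 0.157) and Eif2ak2 (1.34 ± 0.518, adjusted p = 0.193) did not, and all 6 passed without the 3 arrays named above (background 4.96%). A further fit joined arrays of the same number within a genotype and set or an siRNA as a block. It is called the culture block below, although the labels do not say that a number is a culture. With it Ifih1 passed as well (adjusted p = 0.0368), which made 5 members (background 6.47%).

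Within set 1 the 6 h changes were larger than the mean over both sets, from 2.98 ± 0.733 for Eif2ak2 to 7.26 ± 1.17 for Ifi209, and all 6 passed (background 10.8%). At 24 h, 3 members passed in set 1 (background 1.63%), namely Ifi209 (6.31 ± 1.17), Zbp1 (5.40 ± 0.975) and Dhx58 (3.38 ± 0.761). All 6 passed there when set 1 was fitted alone (background 3.55%), and 5 with the culture block (background 4.56%). In set 2 no member passed at 6 h (background 0.0126%) or at 24 h (background 0.0754%) by limma, with 2 and 3 members at an unadjusted p under 0.05. Such a p was found for 194 and 721 of the 7960 genes tested. Without the 3 arrays the 6 h changes in set 2 were 2.55 for Eif2ak2 to 5.35 for Ifi209. That fit leaves 1 untreated WT array in set 2, assumed to vary like the other groups. Its replicate had been named for its high sensors, so the fit is no independent support for a rise. The response at 6 h differed between the sets at an unadjusted p under 0.05 for 3 members and 1318 of the 7960 genes tested. At 24 h it did for 1 member and 501 genes. By the adjusted p this difference passed for no member at 6 h (background 0.791%) or at 24 h (background 0%). The exceptions at 6 h were Zbp1 with the culture block (4.14 ± 1.11, adjusted p = 0.0449, background 4.02%) and all 6 members without untreated WT replicate 2 of set 2. Without the 3 arrays none of the 6 passed (smallest adjusted p = 0.383, for Ifi209).

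From 6 h to 24 h no member changed beyond the test in WT cells (background 2.04% lower, 0 members at an unadjusted p under 0.05). The estimates ran from -0.92 ± 0.665 for Ifih1 to 0.01 ± 0.689 for Zbp1. Both Ifih1 (-0.92 ± 0.207, adjusted p = 0.0127) and Eif2ak2 (-0.64 ± 0.137, adjusted p = 0.00988) fell from 6 h to 24 h without the 3 arrays (background 5.14%), and Zbp1 stood at 0.01 ± 0.444. Single arrays decided part of these counts. The 6 h count over both sets was 4 without WT 6 h replicate 2 of set 1 or without untreated WT replicate 2 of set 2, Ifih1 and Eif2ak2 being lost in both cases. The 24 h count was 1, Ifi209, without untreated WT replicate 1 of set 1, and 6 without untreated WT replicate 1 of set 2. It was 2, Zbp1 and Ifi209, without any one of the other untreated or 24 h arrays of set 1 or either 24 h array of set 2. Within set 1 the 24 h count was 0 without any one of its untreated or 24 h arrays, and 6 without either untreated array of set 2. In set 2 the counts at 6 h and 24 h were 3 and 4 without untreated replicate 1, and the difference between the sets at 24 h passed for 1 member without replicate 2.

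Microglia without Usp18 held all 6 sensors at induced levels before any IFN-b was added. The untreated KO arrays measured 12.02 and 11.65 for Ifih1, 11.04 and 10.89 for Dhx58, and 9.13 and 8.83 for Eif2ak2. For Zbp1 they read 11.17 and 10.73. Among the DNA sensors, Ifi204 was at 9.45 and 9.06 and Ifi209 at 11.32 and 10.88. None of these 12 values overlapped the untreated WT arrays of set 1, and the nearest pair of arrays, for Eif2ak2, lay at 8.83 (KO) and 6.80 (WT). The mean of 3 monocyte and granulocyte markers was 4.80 to 6.05 on the 6 KO arrays and 3.34 to 4.09 on the WT arrays of set 1, with Plac8 at up to 9.53 in KO and Ccr2 above the median on 0 of 24 arrays, and the part of these markers in the KO results was not tested. The mean of the 11 microglial markers was lower in KO, at 10.40 and 10.71 untreated against 10.83 and 10.94 in WT cells of set 1.

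All 6 members were higher in untreated KO than in untreated WT cells by limma, where 8% of genes were called higher. The difference was 7.22 ± 1.17 for Ifi209 (adjusted p = 0.00163), 5.75 ± 0.975 for Zbp1 (adjusted p = 0.00217) and 3.56 ± 0.742 for Ifi204 (adjusted p = 0.00661). Among the RNA sensors it was 3.88 ± 0.761 for Dhx58 (adjusted p = 0.00498), 3.59 ± 0.941 for Ifih1 (adjusted p = 0.0203) and 2.45 ± 0.733 for Eif2ak2 (adjusted p = 0.0351). The median over the members was 3.73, against -0.10 over all genes tested. Set 1 holds every array of this comparison, so fitting it alone could not change the estimates, only their spread. In that fit the adjusted p ran from 7.63e-08 for Ifi209 to 7.84e-05 for Eif2ak2. With both WT sets joined as the control, Zbp1 and Dhx58 passed and Ifi209 (4.89 ± 1.36, adjusted p = 0.0562), Ifih1 (adjusted p = 0.127), Ifi204 (adjusted p = 0.213) and Eif2ak2 (adjusted p = 0.202) did not. The calls of the smaller changes also rested on single arrays. Without untreated KO replicate 1, Dhx58 (adjusted p = 0.06), Ifi204 (adjusted p = 0.0778), Ifih1 (adjusted p = 0.151) and Eif2ak2 (adjusted p = 0.21) no longer passed, which left Zbp1 and Ifi209. Without untreated WT replicate 1 of set 1 Ifih1 (adjusted p = 0.103) and Eif2ak2 (adjusted p = 0.166) were lost, without replicate 2 likewise (adjusted p = 0.0915 and 0.108), and without untreated KO replicate 2 Eif2ak2 alone (adjusted p = 0.0626). When any one of these untreated KO or WT arrays was left out, the estimate for Eif2ak2 stayed between 2.18 and 2.72 and that for Zbp1 between 5.40 and 6.10. The other microglia arrays do not enter these estimates.

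**Figure D2:**
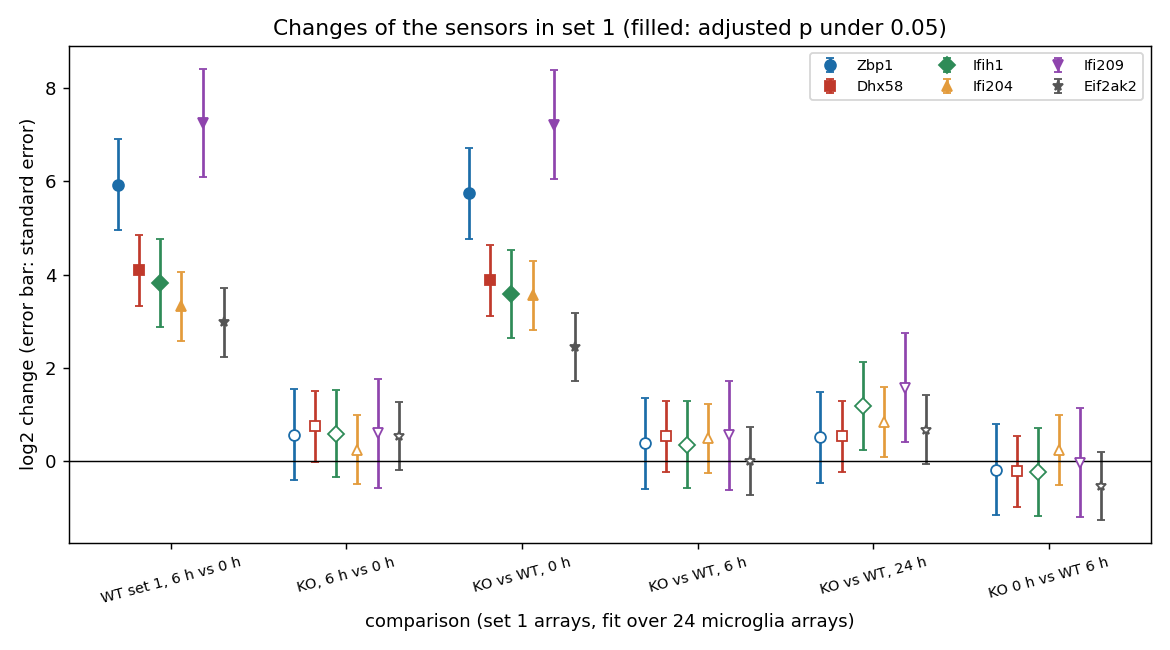
Log2 change of each sensor (vertical axis, error bars are standard errors from the fit over 24 microglia arrays) in 6 comparisons of set 1 arrays (horizontal axis), filled where the adjusted p was under 0.05. WT cells at 6 h and untreated KO cells show all 6 members raised, Ifi209 by 7.26 and 7.22, and in the other comparisons no member passed.

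No member's difference passed between untreated KO cells and WT cells given IFN-b for 6 h (background 0.251%) or 24 h (background 0.314%), with 0 members at an unadjusted p under 0.05 in both. Against 6 h the differences ran from -0.53 ± 0.733 for Eif2ak2 to 0.24 ± 0.742 for Ifi204. Against 24 h they ran from 0.35 ± 0.975 for Zbp1 to 0.91 ± 1.17 for Ifi209.

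No sensor changed beyond the test when IFN-b was added to KO cells. Ifih1 went from 12.02 and 11.65 to 12.49 and 12.36 at 6 h and 12.31 and 12.15 at 24 h, Zbp1 to 11.66 and 11.38 and then 11.25 and 10.97, and Ifi209 to 11.83 and 11.56 and then 11.80 and 11.72. Dhx58 reached 11.59 and 11.84 and came to 10.93 and 11.06, Ifi204 was at 9.69 and 9.32 and then 9.13 and 9.35, and Eif2ak2 at 9.63 and 9.39 and then 9.27 and 9.25. No member passed at 6 h (background 8.45%), where the estimates were 0.25 ± 0.742 for Ifi204 to 0.75 ± 0.761 for Dhx58, or at 24 h (background 3.97%), where they were -0.02 ± 0.742 for Ifi204 to 0.66 ± 1.17 for Ifi209. At an unadjusted p under 0.05 the number was 0 at both times.

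The difference between the KO and WT responses was negative for all 6 members and did not pass by the fit over all microglia arrays. That fit takes its spread for each gene from the arrays of set 2 as well. At 6 h it was -6.66 ± 1.65 for Ifi209 (adjusted p = 0.0698), -5.37 ± 1.38 for Zbp1 (adjusted p = 0.0785) and -3.35 ± 1.08 for Dhx58 (adjusted p = 0.162). For Ifih1 it was -3.23 ± 1.33, for Ifi204 -3.07 ± 1.05 and for Eif2ak2 -2.44 ± 1.04. An unadjusted p under 0.05 was found at 6 h for all 6 members and for 1075 of the 7960 genes tested. At 24 h it was found for 4 members and 1062 genes. The shares of genes called lower at an adjusted p under 0.05 were 0.854% at 6 h and 0.503% at 24 h. On set 1 arrays alone, which hold every array of this comparison, all 6 were called lower at 6 h (background 3.33%) and at 24 h (background 1.69%), with adjusted p up to 0.00161 and up to 0.0167. The same held without the 3 arrays, at 6 h (background 3.73%) and 24 h (background 2.03%). With culture as a block 3 members passed at 6 h (background 3.56%) and 3 at 24 h (background 3.62%), Zbp1, Dhx58 and Ifi209 each time. In the fit over all microglia arrays 4 members passed at each time without either untreated WT array of set 2, and 1 at 6 h without either C61A 6 h array. Since the untreated KO arrays enter both this term and the untreated difference above, the terms share arrays and are not independent.

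After 6 h of IFN-b no member's difference between KO and WT cells passed (background 8.32%, 0 at an unadjusted p under 0.05), and the differences lay between 0.01 ± 0.733 for Eif2ak2 and 0.56 ± 1.17 for Ifi209. At 24 h, on the probe sets read, the KO arrays lay above the WT arrays of set 1 without overlap for every member. The widest gap was that of Ifi209 (11.80 and 11.72 against 10.29 and 10.08). On the other Ifi209 probe set the arrays overlapped (11.36 and 9.83 against 11.07 and 7.18). Its difference in the fit over all microglia arrays was 1.47 ± 1.62, and it was not fitted on set 1 arrays alone. In the fit over all microglia arrays these differences did not pass (background 29.1%, 0 at an unadjusted p under 0.05): 1.57 ± 1.17 for Ifi209, 1.18 ± 0.941 for Ifih1, 0.84 ± 0.742 for Ifi204, 0.68 ± 0.733 for Eif2ak2, 0.53 ± 0.761 for Dhx58 and 0.51 ± 0.975 for Zbp1. On set 1 arrays alone 4 of 6 were higher in KO (background 14%), Ifi209 (± 0.183, adjusted p = 0.00111), Ifih1 (± 0.184, adjusted p = 0.00294), Ifi204 (± 0.252, adjusted p = 0.0341) and Eif2ak2 (± 0.204, adjusted p = 0.035). The fit over all microglia arrays takes its spread for each gene from set 2 as well, and its standard error for Ifi209 was 1.17. The same 4 passed without the 3 arrays (background 14%). The microglial marker mean at 24 h was 9.84 and 9.89 in KO against 10.97 and 10.89 in WT, and the monocyte and granulocyte mean 5.58 and 5.89 against 3.34 and 3.61, and their part in these differences was not tested.

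In cells with the C61A mutation of Usp18 the untreated arrays did not show the raised sensors of KO cells. Ifih1 lay at 9.56 and 8.34 untreated, at 12.67 and 9.71 after 6 h and at 12.15 and 12.03 after 24 h. Ifi209 was at 6.64 and 4.23, then 11.38 and 8.77, then 11.41 and 11.64, and Zbp1 at 8.43 and 5.54, then 10.60 and 8.58, then 10.49 and 10.72. In each of these 3 genes untreated replicate 1 stood above replicate 2. The WT arrays of set 2 read 12.53 and 8.66, 12.34 and 12.33, and 11.65 and 11.38 for Ifih1 at the 3 times. Dhx58 measured 7.62 and 6.34 in untreated C61A cells and 9.87 and 9.78 at 24 h, Ifi204 7.17 and 6.53 and then 10.58 and 10.80, and Eif2ak2 7.28 and 7.08 and then 9.59 and 9.30. At 24 h both C61A arrays were above both untreated ones for all 6 members.

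No member's difference between C61A and WT cells passed at 0 h (background 0.0126%), 6 h (background 0.0126%) or 24 h (background 0.0251%) by limma, and 2, 0 and 0 members had an unadjusted p under 0.05. At 0 h 391 of the 7960 genes tested had such a p. The untreated differences ran from -3.10 ± 1.17 for Ifi209 to -0.94 ± 0.975 for Zbp1, and all were negative with untreated WT replicate 1 of set 2 in the fit. Without the 3 arrays they ran from -0.52 ± 0.618 for Ifi209 to 0.90 ± 0.769 for Zbp1 and none passed (adjusted p of 1 for each). Without the other untreated WT array instead, 5 members were called lower in C61A (Ifi209 by -5.67, adjusted p = 0.00964), a comparison with the 1 array that carries the sensors at treated levels, whose spread is taken from the other groups. The sign of most of these differences rests on which WT array is read. At 24 h the differences were 0.07 ± 0.761 for Dhx58 to 0.57 ± 0.941 for Ifih1.

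The C61A response at 24 h passed for 4 of 6 members (background 5.46%): Ifi209 at 6.09 ± 1.17, Ifi204 at 3.84 ± 0.742, Zbp1 at 3.62 ± 0.975 and Dhx58 at 2.85 ± 0.761. Ifih1 (3.14 ± 0.941, adjusted p = 0.0506) and Eif2ak2 (2.26 ± 0.733, adjusted p = 0.068) fell just short, and all 6 passed with the culture block (background 9.76%) and without the 3 arrays (background 8.08%). The count was 0 on set 2 arrays alone and without either 24 h array or untreated replicate 2 of C61A. At 6 h none passed (background 0.0503%, 5 at an unadjusted p under 0.05), with estimates of 1.55 ± 0.733 for Eif2ak2 to 4.64 ± 1.17 for Ifi209, and Ifi204 and Ifi209 passed without either untreated WT array of set 2. In the 6 h response of C61A cells 466 of the 7960 genes tested had an unadjusted p under 0.05. Without the 3 arrays 1 C61A array is left at 6 h. The array left out had been named for its low sensors, so that fit is no independent support for a rise. The difference between the C61A and WT responses passed for no member at 6 h (background 0%) or 24 h (background 0%), with 0 members at an unadjusted p under 0.05. Without untreated WT replicate 2 of set 2, Ifi204 and Ifi209 passed at 24 h.

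The knockout effect and the point mutation effect on untreated cells differed for all 6 members. The KO difference from WT of set 1 minus the C61A difference from WT of set 2 was 10.32 ± 1.65 for Ifi209 (adjusted p = 0.00276), 6.69 ± 1.38 for Zbp1 (adjusted p = 0.00864) and 5.22 ± 1.05 for Ifi204 (adjusted p = 0.00813). It was 5.23 ± 1.33 for Ifih1 (adjusted p = 0.0214), 5.13 ± 1.08 for Dhx58 (adjusted p = 0.00953) and 3.59 ± 1.04 for Eif2ak2 (adjusted p = 0.0369), with 7.55% of genes called higher. The difference was smaller without the 3 arrays and passed for all 6 (background 5.65%), from 2.02 ± 0.307 for Eif2ak2 to 7.74 ± 0.798 for Ifi209. Ifih1 and Eif2ak2 were lost without untreated KO replicate 1, without either untreated WT array of set 1, without untreated C61A replicate 2 and without untreated WT replicate 1 of set 2 (adjusted p = 0.0856 and 0.139 in the last). After IFN-b this difference passed for no member at 6 h (background 0.817%) or 24 h (background 3.1%), with 0 members at an unadjusted p under 0.05. Each mutant enters this comparison against its own WT arrays, and the sets differed in the astrocyte mean given above, whose part in the difference was not tested.

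BV-2 cells given the control siRNA raised the 5 sensors that could be tested. Zbp1 went from 4.83 and 5.53 to 9.15 and 9.29 at 6 h and 9.33 and 9.92 at 24 h. Ifi209 went from 3.74 and 4.39 to 9.76 and 10.32 and stood at 8.18 and 9.39 at 24 h, and Ifi204 from 6.12 and 6.64 to 10.29 and 10.39 and then 10.00 and 10.31. These 3 genes had treated arrays well clear of the untreated ones. Dhx58 was at 5.96 and 5.93 untreated, 9.18 and 8.65 at 6 h and 8.24 and 8.52 at 24 h. Eif2ak2, read in BV-2 cells by its other probe set, was at 7.79 and 8.15, then 10.12 and 9.60, then 8.87 and 8.64.

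**Figure D3:**
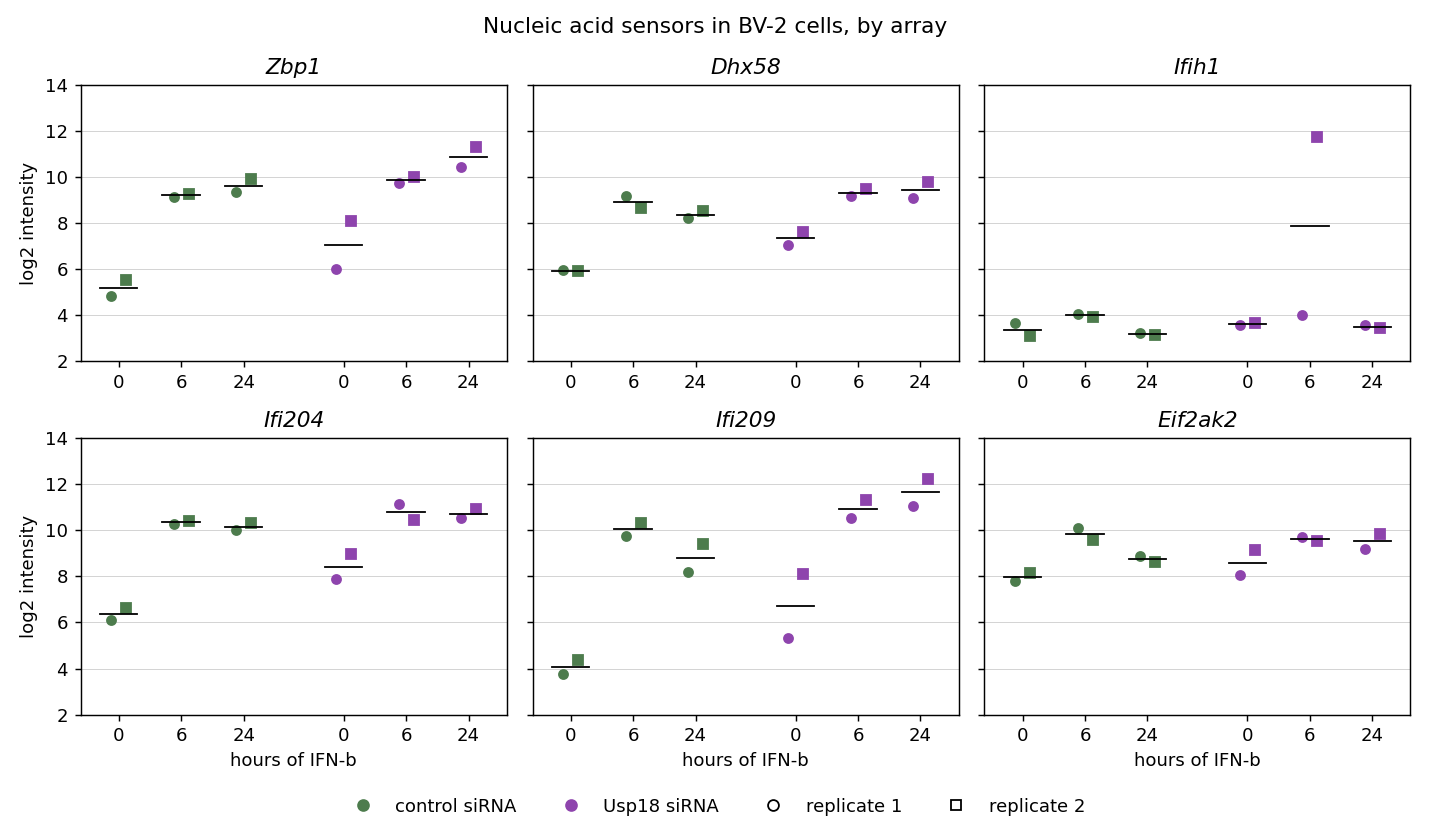
Log2 intensity of the 6 sensors on each of 12 BV-2 arrays (vertical axis) by hours of IFN-b and siRNA (horizontal axis), 1 point per array with replicate 1 as circles and replicate 2 as squares, and a bar at the group mean. Ifih1 stays between 3.10 and 4.08 on 11 arrays and lies at 11.74 on the remaining one, Usp18 siRNA 6 h replicate 2.

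With control siRNA all 5 passed at 6 h (limma, background 0.991%), by 5.97 ± 0.811 for Ifi209, 4.04 ± 0.589 for Zbp1, 3.96 ± 0.367 for Ifi204, 2.97 ± 0.293 for Dhx58 and 1.89 ± 0.354 for Eif2ak2 (adjusted p = 0.0454). The Eif2ak2 call was lost with median centring (adjusted p = 0.0537), quantile normalization (adjusted p = 0.0519) and no filter (adjusted p = 0.0646). At 24 h 4 of 5 passed (background 0.503%), and Eif2ak2 did not (0.79 ± 0.354, adjusted p = 0.553). With Usp18 siRNA 4 of 5 passed at 6 h (background 1.02%) and at 24 h (background 6.62%), in both cases all but Eif2ak2 (1.01 ± 0.354, adjusted p = 0.132, and 0.92 ± 0.354, adjusted p = 0.106). On the probe set read in microglia, Eif2ak2 rose at 24 h with Usp18 siRNA (1.53 ± 0.328, adjusted p = 0.0196), as it did by the mean of its probe sets (1.22 ± 0.318, adjusted p = 0.0334). With Usp18 siRNA at 6 h Zbp1 was lost with median centring (adjusted p = 0.0547), and Zbp1 (adjusted p = 0.0644) and Ifi209 (adjusted p = 0.054) without a filter. With control siRNA at 24 h Ifi209 was lost without a filter (adjusted p = 0.0672) and by the mean of its probe sets (adjusted p = 0.0562). The Ifi209 change with Usp18 siRNA was 4.21 ± 0.811 at 6 h and 4.93 ± 0.811 at 24 h. Without Usp18 siRNA 6 h replicate 2, or without untreated Usp18 siRNA replicate 1, no member passed at 6 h, and 1 or 2 passed without any one of the control siRNA arrays. The 24 h count with Usp18 siRNA was 1 without untreated replicate 1 or without 24 h replicate 2, and with control siRNA the 6 h count was 2, Dhx58 and Ifi204, without any one of the 4 arrays compared. With control siRNA at 24 h it was 0 or 1 (Ifi204) without any one of its untreated or 24 h arrays. In each of these fits the lone array of a group is assumed to vary like the other groups.

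On the probe sets read, the sensors of untreated cells lay higher with Usp18 siRNA than with the control on both arrays for 4 of the 5 genes. For Eif2ak2 the groups overlapped (8.07 and 9.13 against 7.79 and 8.15). On the other probe set of Zbp1 only replicate 2 lay higher (4.58 and 6.51 against 4.63 and 4.67). The other Eif2ak2 probe set showed no overlap (7.62 and 8.10 against 6.75 and 7.50). Ifi204 read 7.87 and 8.97 with Usp18 siRNA and 6.12 and 6.64 with the control, and Ifi209 5.35 and 8.10 against 3.74 and 4.39. Zbp1 was at 6.01 and 8.11 and Dhx58 at 7.07 and 7.62 with Usp18 siRNA. None of these differences passed (background 0%, 4 at an unadjusted p under 0.05): 2.66 ± 0.811 for Ifi209, 2.04 ± 0.367 for Ifi204, 1.88 ± 0.589 for Zbp1, 1.40 ± 0.293 for Dhx58 and 0.63 ± 0.354 for Eif2ak2. Untreated, 176 of the 7163 genes tested had an unadjusted p under 0.05. At 6 h none of the members passed (background 0%, 0 at an unadjusted p under 0.05). At 24 h, in the fit without a block, none passed (background 5.35%). Ifi209 (11.06 and 12.24 against 8.18 and 9.39, 2.86 ± 0.811, adjusted p = 0.0684) and Dhx58 (9.07 and 9.80 against 8.24 and 8.52, 1.06 ± 0.293, adjusted p = 0.0649) came closest there. An unadjusted p under 0.05 was found for 2 members and for 2091 of the 7163 genes tested. Arrays of the same number deviated together across the siRNAs (correlations of 0.506, 0.322 and 0.346 at 0 h, 6 h and 24 h). With the number as a block, Ifi209 (2.86 ± 0.454, adjusted p = 0.00773) and Dhx58 (1.06 ± 0.269, adjusted p = 0.0303) were higher with Usp18 siRNA at 24 h (background 8.56%). Ifi209 passed there with culture as a block (adjusted p = 0.0463, background 3.64%) and without either untreated Usp18 siRNA array (adjusted p = 0.0429 and 0.0436), and both genes passed without 24 h Usp18 siRNA replicate 1 (Dhx58 adjusted p = 0.0139). At 24 h the mean of the 3 monocyte and granulocyte markers was 6.00 and 4.99 with Usp18 siRNA against 4.45 and 4.16 with the control, with Plac8 at 8.71 on replicate 1, and the mean of the 11 microglial markers was 7.29 and 7.71 against 6.72 and 7.17. The part of these markers in the difference was not tested. No difference in response between the siRNAs passed at 6 h (background 0%, 2 at an unadjusted p under 0.05) or 24 h (background 0.0279%, 1 so). Such an unadjusted p was found for 244 and 677 of the 7163 genes tested.

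Ifih1 was the exception among the sensors in BV-2 cells. Its single probe set lay between 3.10 and 4.08 on 11 of 12 arrays, below every array median, and the arrays after IFN-b were no exception (4.08 and 3.91 at 6 h and 3.25 and 3.15 at 24 h with control siRNA, against 3.67 and 3.10 untreated). The same probe set ranged from 8.11 to 12.67 in primary microglia. In BV-2 cells it passed the median on 1 array, Usp18 siRNA 6 h replicate 2, and therefore was not tested there. The value of 11.74 on that array went with C1qa at 9.96 and P2ry12 at 6.45, which were at most 5.10 and 3.54 on the other BV-2 arrays, and the part of these markers in it was not tested. Whether the transcript is absent or the probe set does not read it in BV-2 cells was not tested.

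Different probe sets of a gene had the same direction wherever the read probe set passed, and some calls turned on the choice. The second Zbp1 probe set read 11.01 and 10.42 in untreated KO and 4.77 and 4.71 in untreated WT cells of set 1, and followed the first at a correlation of 0.978 over the 24 microglia arrays. A second Dhx58 probe set read 9.15 and 8.96 against 5.11 and 5.73 (correlation 0.975), whereas a further one passed the array median on 1 of 24 microglia arrays and was not used there. For Eif2ak2 the other probe set gave 8.88 and 7.77 in untreated KO against 5.70 and 5.64 in untreated WT (correlation 0.871). These correlations are over arrays that share the treatment and are descriptions. With the other probe set, Dhx58 no longer passed in C61A cells at 24 h (2.29 ± 0.713, adjusted p = 0.0588) and Zbp1 no longer with control siRNA at 24 h (3.28 ± 0.581, adjusted p = 0.0568), whereas Eif2ak2 passed in C61A cells at 24 h (2.86 ± 0.724, adjusted p = 0.0262). On the dim Dhx58 probe set the BV-2 changes with control siRNA at 24 h (1.56 ± 0.298) and with Usp18 siRNA at 6 h (0.56 ± 0.298) did not pass.

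The Ifi209 probe sets disagreed by replicate number in set 1. On the read probe set, the WT replicates at 6 h were 11.12 and 11.15, and on the other one 11.93 and 8.30. At 24 h the second probe set gave 11.07 and 7.18 in WT cells, and in KO cells 11.13 and 9.81 untreated, 11.55 and 10.48 at 6 h and 11.36 and 9.83 at 24 h. Replicate 2 was thus the lower array on the second probe set in all 6 groups of set 1, by 1.08 to 3.89 log2 units, while the first probe set differed by at most 0.44 there. In set 2 the replicate differences were alike on both (5.36 and 5.16 in untreated WT cells), and in BV-2 cells the probe sets correlated at 0.997 over 12 arrays. With the second probe set the untreated KO difference of Ifi209 was 6.06 (adjusted p = 0.0221) in place of 7.22, and the 24 h response of WT cells no longer passed (3.63, adjusted p = 0.108). The 24 h responses of C61A cells (5.28, adjusted p = 0.0558) and of BV-2 cells with control siRNA (4.25, adjusted p = 0.0736) also missed the threshold with it.

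**Figure D4:**
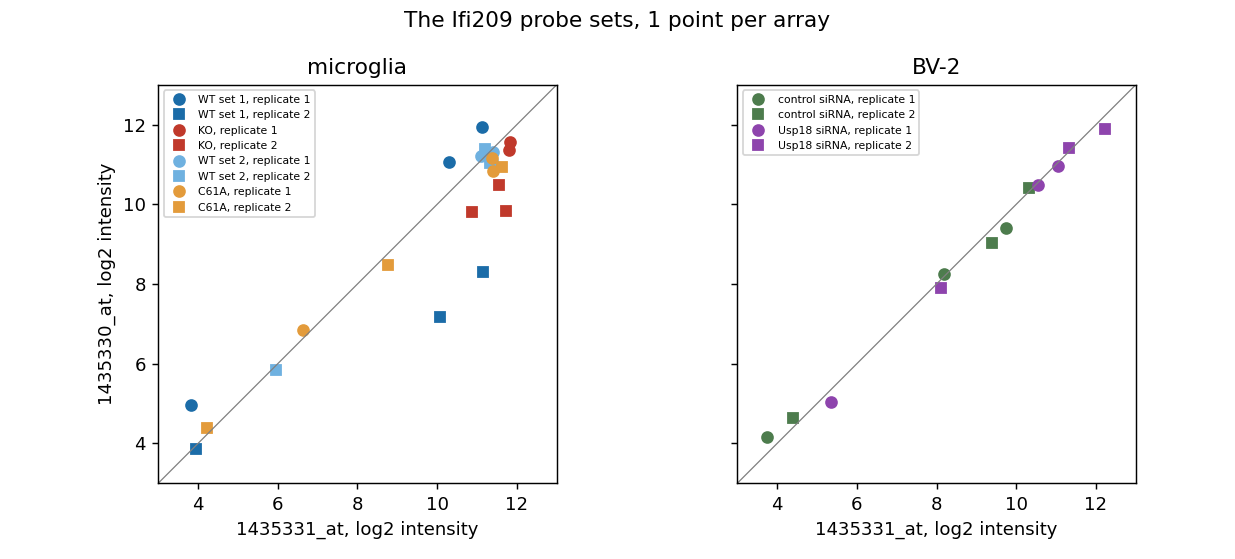
Log2 intensity of Ifi209 on its other probe set (vertical axis) against the probe set read in the tests (horizontal axis), 1 point per array, microglia and BV-2 cells in separate panels, with the line of equal values. Replicate 2 arrays of set 1 lie below the line, such as WT 6 h at 8.30 against 11.15, and the BV-2 arrays lie near it.

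Several PYHIN genes lie near each other in the genome, with 2 protein-coding genes between Ifi209 and Ifi204 and none between Ifi204 and Mndal in the RefSeq gene order. Some of them share a probe set, so that probes of one may read another. A probe set shared by Mndal, Ifi211, Ifi205 and Ifi204 was left out of the tests. It read 10.80 and 10.47 in untreated KO and 6.03 and 6.36 in untreated WT cells of set 1, the direction that the Ifi204 probe set had. In BV-2 cells with control siRNA it went from 5.93 and 7.05 to 10.95 and 11.11 at 6 h.

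Of 53 further genes of cytosolic nucleic acid sensing that were listed, 37 had a single-gene probe set and 34 were tested in microglia and 31 in BV-2 cells. In WT cells at 6 h 14 rose (41.2% of the list, background 7.59%) and 2 fell (5.88%, background 7.81%, so that the falls were no more frequent than over all genes). Irf7, the transcription factor that amplifies interferon production, rose by 4.17 ± 0.763, the helicase Ddx60 by 3.62 ± 0.936, the PYHIN gene Mndal by 3.18 ± 0.601 and the RNA-editing enzyme Adar by 2.04 ± 0.379. Prkra, an activator of PKR, fell by 0.81 ± 0.159, and the ribonuclease H2 subunit Rnaseh2c fell by 0.55 ± 0.172. At 24 h 5 rose (background 2.02%) and none fell. The median over the list was 0.56 at 6 h and 0.30 at 24 h, below the medians of the members.

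In untreated KO cells 12 of the 34 were higher than in WT (35.3%, background 8%) and 2 lower (5.88%, background 8.78%). Irf7 was higher by 6.47 ± 1.08, Ddx60 by 5.01 ± 1.32, Mndal by 4.11 ± 0.850 and Ddit3, a target of the eIF2 alpha stress pathway, by 3.20 ± 0.403. The lower ones, a share under that of all genes, were Rnaseh2c (-1.09 ± 0.244) and Prkra (-1.04 ± 0.225), and the list median was 0.54. After 24 h of IFN-b 8 were higher in KO (23.5%, background 11.3%) and 6 lower (17.6%, background 17.7%), the latter at the share of all genes. The largest differences each way were those of Rnf135, a ubiquitin ligase of the RIG-I pathway (2.89 ± 0.573), and of Rnaseh2c (-1.42 ± 0.244). Ddit3 (1.69 ± 0.403) and Ppp1r15a, which directs the phosphatase that reverses eIF2 alpha phosphorylation (1.33 ± 0.242), were also higher. The adaptor Mavs, downstream of Ifih1, was lower in KO at 24 h by -1.11 ± 0.310 (adjusted p = 0.0157). At 6 h the kinase Ikbke alone passed in the list, lower in KO (-1.11 ± 0.275, background 5.44%). No difference between C61A and WT cells passed for the 34 at any time by limma, and the C61A 24 h response held 10 rises (29.4%, background 5.46%) and 2 falls (5.88%, background 3.63%), among the rises Ddx60 (5.50 ± 1.32), Irf7 (5.16 ± 1.08) and Mndal (4.85 ± 0.850).

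In BV-2 cells 2 of the 31 rose with control siRNA at 6 h, Mndal (4.84 ± 0.286) and Adar (1.78 ± 0.285), and 2 at 24 h, Mndal (4.15 ± 0.286) and Irf7 (4.03 ± 0.600). These are 6.45% of the list, with backgrounds of 0.991% and 0.503%. With Usp18 siRNA 3 rose at 6 h (9.68%, background 1.02%). At 24 h 12 rose (38.7%, background 6.62%) and 3 fell (9.68%, background 9.24%, close to the share of all genes). Between the siRNAs 6 of the 31 were higher with Usp18 siRNA at 24 h (19.4%, background 3.07%) and 1 lower (3.23%, background 2.28%), in the fit without a block, where none of the 5 members passed. The higher ones were Ddx60 (4.70 ± 0.969), Rnf135 (2.85 ± 0.616), the ubiquitin ligase Trim21 (2.55 ± 0.456), the nucleotide hydrolase Samhd1 (1.56 ± 0.373), Mndal (1.43 ± 0.286) and the inflammasome DNA sensor Aim2 (1.04 ± 0.207), and Mavs was lower (-0.91 ± 0.200). The list median at 24 h was 0.29, against 1.06 over the members and -0.08 over all genes tested.

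Over the 12 microglia group means, the pattern of the members among themselves was closest for Ifih1 and Eif2ak2 (Pearson correlation 0.992) and least alike for Dhx58 and Ifi204 (0.630). Ifi204 was higher in treated cells of set 2 than of set 1 (10.65 against 9.02 as WT means at 6 h), and Dhx58 was lower (9.76 against 11.18). Genes outside the list that followed a member most closely were Oas1a (0.994) and Fcgr4 (0.986) for Zbp1, Trim30d (0.988) and Sp100 (0.987) for Dhx58, and Iigp1 and Gbp7 for both Ifih1 (0.991 and 0.990) and Eif2ak2 (0.991 and 0.990). For Ifi209 they were Ifit3 (0.997) and Ifit2 (0.996), and for Ifi204 Dck (0.981) and Helz2 (0.952). All these points share arrays, treatment and set, and the correlations are given as a description.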

How the data were processed

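The deposited values are log2 intensities of 22690 probe sets, made by the authors with the Bioconductor package affy, per the submitters' processing notes. The log base was inferred from the range of 1.664 to 14.031. Neither its version nor the background correction or normalization was stated. Per the labels' protocols, cultures grew in DMEM with serum, and RNA from RNeasy columns was labelled with biotin. Arrays have no counting depth, so the number of arrays limits the precision.

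Probe sets were named from the platform table. Of 21084 listed, 20393 had 1 gene, 691 several, and 1606 were unlisted. A probe set was kept if it exceeded the array median on at least 2 arrays of the microglia or of the BV-2 fit, and the kept probe set of highest mean stood for the gene. limma 3.58.1 (R 4.3.3) fitted 1 mean per group, with 24 microglia arrays (7960 genes, 12 residual degrees of freedom) and 12 BV-2 arrays (7163 genes, 6 residual degrees of freedom). P-values were moderated by eBayes and adjusted by Benjamini-Hochberg over all genes of each comparison at a threshold of 0.05. The fit was tested on simulated data with known changes. Replicate numbers were checked as pairs: deviations of same-numbered arrays correlated across times within a genotype and set or an siRNA at 0.296 to 0.811, and between groups at the same time at -0.46 to -0.0437 for C61A and WT, -0.112 to -0.0856 for KO and WT, and 0.322 to 0.506 for the siRNAs. In BV-2 cells the numbers therefore pair the siRNAs too, and the block by number applies. The main BV-2 fit had no block, so its counts between the siRNAs leave this pairing out. A culture block joined arrays of 1 number within a genotype and set or an siRNA. For changes over time within these, and for differences between such changes, the block was a fixed term of the fit. For comparisons between genotypes or siRNAs at the same time, it entered as a correlation between arrays (duplicateCorrelation). These values stand beside the results they changed. P-values measure the spread between these arrays, since separate animals are not stated.

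The members, the pathway list and the tests were chosen with earlier results of these data known. Genes outside the members were named by size among the called genes of the list, and by the highest correlation of group means. Alternatives were median centring, quantile normalization, no filter, other probe sets, the mean of probe sets, blocks by number or culture, no set term, single sets, and leaving out arrays. Figures used Python 3.11.15 and matplotlib 3.10.9.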

Additional observations from a re-analysis of the deposited data

Results flagged for a closer look

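The effect of losing Usp18 and the effect of the C61A mutation on untreated cells differed by a test of the difference itself for all 6 sensors. The difference of the effects on the log2 scale was 6.69 for Zbp1, 5.13 for Dhx58, 5.23 for Ifih1, 5.22 for Ifi204, 10.32 for Ifi209 and 3.59 for Eif2ak2. Without untreated WT replicate 1 of set 2 the value was 2.02 for Eif2ak2 (limma, adjusted p = 0.139) and 3.30 for Ifih1 (adjusted p = 0.0856), so that neither passed. Both untreated KO arrays lay above both untreated C61A arrays for each of the 6. For Ifi209 the untreated KO arrays read 11.32 and 10.88 and the untreated C61A arrays 6.64 and 4.23.

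Signal outside the tests was present in 2 places. The probe set shared by Mndal, Ifi211, Ifi205 and Ifi204 was higher in untreated KO than in untreated WT cells of set 1 by 4.44. Ifih1, below the filter in BV-2 cells, read 11.7 on Usp18 siRNA 6 h replicate 2.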

How the results depend on the processing

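No member called in the main fit reversed its direction under any alternative. The untreated differences between C61A and WT cells, not called in that fit, had a sign that mostly rested on which WT array was read. Counts of members called changed as follows, and those without the 3 arrays carry the limit given where these arrays are named. Without the 3 arrays that stand apart, 2 were called lower from 6 h to 24 h in WT cells, 6 in WT set 1 at 24 h, 6 in WT set 2 at 6 h and 6 at 24 h, 4 in KO against WT at 24 h, 6 in each KO response difference, 6 in C61A cells at 6 h and 0 with Usp18 siRNA at 6 h. With the replicate block by culture, 5 were called in WT set 1 at 24 h, 1 in the difference between the sets at 6 h, 3 in each KO response difference and 1 between the siRNAs at 24 h. With the replicate block by number, 3 and 1 were called in the KO response differences at 6 h and 24 h and 2 between the siRNAs at 24 h. Neither block moved another count by over 1.5 times. With set 1 fitted alone, 6 were called in WT at 24 h, 4 in KO against WT at 24 h and 6 in each KO response difference. With set 2 alone, 0 were called in C61A cells at 24 h. Without a filter, 2 were called with Usp18 siRNA at 6 h. With the WT sets joined (no set term), 2 were called in WT at 6 h and 0 at 24 h, 2 in KO against WT untreated, and 3 and 1 in the difference of the KO and C61A effects at 0 h and 6 h. The fit over all microglia arrays takes 1 spread per gene from both sets, whereas a set fitted alone uses its own. What moved each count was not tested.

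Leaving out 1 array in turn gave 2 to 6 members in untreated KO against WT, 4 to 6 in WT at 6 h and 1 to 6 at 24 h, 4 to 6 in set 1 at 6 h and 0 to 6 at 24 h, and 0 to 3 and 0 to 4 in set 2 at 6 h and 24 h. It gave 0 to 6 and 0 to 1 in the difference between the sets, 0 to 4 in each KO response difference, 0 to 5 in untreated C61A against WT, 0 to 2 in C61A at 6 h, 0 to 6 at 24 h, 0 to 2 in the C61A response difference at 24 h and 4 to 6 in the difference of the effects at 0 h. In BV-2 cells it gave 2 to 5 and 0 to 4 with control siRNA at 6 h and 24 h, 0 to 4 and 1 to 4 with Usp18 siRNA, and 0 to 2 between the siRNAs at 24 h. With 2 arrays a group, a p that misses the threshold does not show equal levels, and signals under the array median are compressed at the floor.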
